A study of Mus musculus with 12 samples.

Results

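The response of *Ddx5*-knockdown ATDC5 cells to IL-1β combined with TNF-α was read from 6 of the 12 RNA-seq libraries of the series, 3 of knockdown cells in medium and 3 of knockdown cells with both cytokines. ATDC5 is a mouse line derived from teratocarcinoma and used as a model of chondrocyte precursors. The knockdown cells (shRNA-*Ddx5*) carried a lentiviral hairpin against the RNA helicase gene *Ddx5*, were selected with puromycin and are not stated to be 1 clone, and the control cells (shRNA-NC), labelled wildtype, carried a control hairpin, so that the medium and cytokine groups compared here share the knockdown. The cytokine libraries were made after 6 h with IL-1β and TNF-α, and the medium libraries are labelled with the same time. A gene was included when its FPKM, its fragments per kilobase of gene length, scaled to the size of the library, was at least 1 in at least 3 of the 6 knockdown libraries. This rule kept 11665 of the 46731 genes of the table, and 21362 genes had no fragment in any of the 6 libraries.

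IL-1β and TNF-α are secreted by macrophages and by stressed joint cells, and both bind receptors on chondrocytes and their precursors. The receptors recruit adaptor proteins that activate the IκB kinase complex, which releases the transcription factor NF-κB from its inhibitor and lets it enter the nucleus, while parallel kinase cascades activate AP-1 factors. Among the genes that NF-κB controls are chemokines, which attract leukocytes, matrix-degrading enzymes, and the inhibitors that end the signal. In cartilage these cytokines are known for loss of the chondrocyte programme and for breakdown of the matrix.

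Between 16036141 and 18279975 fragments per knockdown library lay on genes, and log2 values correlated across genes at 0.979 to 0.993 within a group and at 0.937 to 0.951 between the groups. *Ddx5* itself was at 90.7, 118 and 99.9 FPKM in medium and at 101, 93.6 and 104 FPKM with cytokines. The groups overlapped, and the log2 fold change was -0.04 (standard error 0.10, adjusted p = 0.80 by limma). *Ddx5* stood at 294 to 337 FPKM in the shRNA-NC libraries in medium. Of 15 markers of chondrocytes and their precursors only 5 passed the filter, and *Col2a1* (0.90 FPKM in medium and 0.78 FPKM with cytokines) and *Acan* (0.015 FPKM and 0.024 FPKM) did not. The summed FPKM of the 15 was 33.0 to 35.5 in medium and 13.3 to 13.7 with cytokines. A single gene, *Sox9*, made up most of the sum in medium and most of its fall. By the test described below, 3 of the 5 markers fell and 1, *Prg4*, rose. Mitochondrial genes took 2.16 to 2.83% of the fragments in medium and 1.65 to 1.78% with cytokines, and whether this has a part in the results was not tested. In bulk RNA, fewer cells of a kind and less RNA per cell cannot be told apart.

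Each gene was compared by limma as log2(FPKM + 1), where changes of genes near 1 FPKM or below come out too small, in a fit over all 12 libraries, with Benjamini-Hochberg adjustment over the 11665 genes. A gene passed, or was called, at an adjusted p under 0.05. With cytokines 3317 genes passed (28.4% of those tested), 1660 of them higher (14.2%) and 1657 lower (14.2%). The even split held on the values as deposited. After quantile normalization 1433 genes were higher and 2179 lower, and with libraries scaled to equal fragments 1432 were higher and 1972 lower. The 3 cytokine libraries lay all above or all below the 3 medium libraries for 5623 genes (48.2%).

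The rises were far larger than the falls. Among the genes called higher, 590 had a mean FPKM at least 2 times that in medium, 138 at least 8 times and 64 at least 32 times. Among those called lower the counts were 361, 15 and 1. Of the genes tested, 33 went from under 0.1 FPKM in every medium library to at least 1 FPKM in every cytokine library, and 1 gene did the reverse. The genes called lower were longer, with a median length of 4362 bases against 2916.5 bases for those called higher and 3222 bases for the others, and whether length has a part in the calls was not tested.

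**Figure D1:**
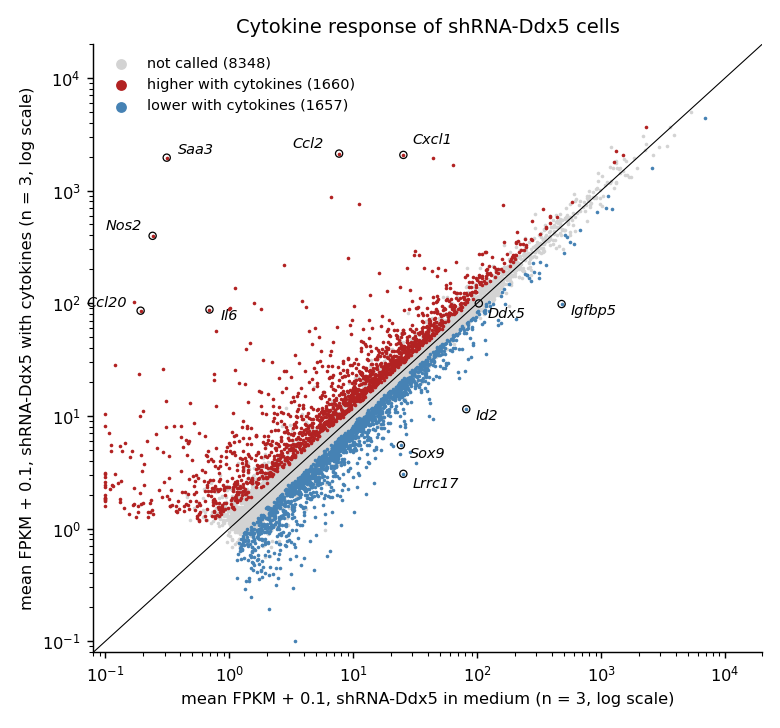
Mean FPKM plus 0.1 of each of the 11665 genes in shRNA-*Ddx5* cells in medium (x axis) and with cytokines (y axis), both on log scales with 3 libraries per group, coloured by call. The 1660 genes called higher reach far above the diagonal, *Saa3* and *Nos2* most, while the 1657 genes called lower lie closer to it.

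*Saa3* and *Nos2* had the largest rises on the log2 scale. *Saa3* (gene 20210, chromosome 7, 46361422 to 46365100, GRCm39 as are all gene coordinates here), an acute-phase serum amyloid A protein, was at 0.115, 0.104 and 0.418 FPKM in medium, which is 1, 1 and 4 fragments. With cytokines it was at 1785, 2182 and 1909 FPKM. The groups lay far apart, and the log2 fold change was 10.66 (standard error 0.51, adjusted p = 3.4e-08), a value that rests on the pseudocount of 1 because the medium libraries are near the floor of 3 fragments. *Nos2* (gene 18126, chromosome 11, 78811613 to 78851052) encodes the inducible nitric oxide synthase. It was at 0.0849, 0.129 and 0.207 FPKM in medium and at 388, 409 and 392 FPKM with cytokines. The groups again lay far apart, and the log2 fold change was 8.45 (standard error 0.23, adjusted p = 3.0e-10). The 15 genes with the largest rises together took 0.0131 to 0.0137% of the fragments of a medium library and 1.17 to 1.25% of those of a cytokine library.

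**Figure D2:**
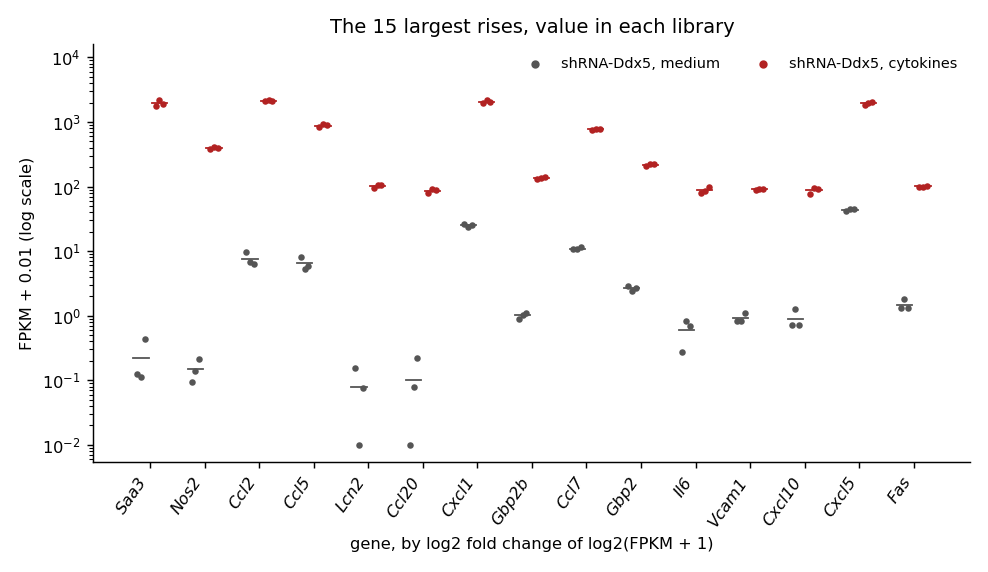
FPKM plus 0.01 (log scale) of the 15 genes with the largest rises in each shRNA-*Ddx5* library in medium (grey) and with cytokines (red), with a line at the mean of 3 libraries. The genes were chosen among those with separate groups. The cytokine values of a gene lie close together, while those in medium spread more where a library holds few fragments, as for *Lcn2* and *Ccl20*.

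Chemokines were the group with the highest median change. A gene near 0 in medium could pass the filter only through its cytokine libraries, so the counts of tested members describe each list and are no test of it. Of the 9 CXC chemokines tested (of 15 listed), 8 were called higher and 1 lower, with a median log2 fold change of 4.50 against 0.00081 over all genes tested. Of the 10 tested CC chemokines and fractalkine (of 20 listed), 9 were called higher and none lower, with a median of 4.08. *Cxcl1* (gene 14825, chromosome 5, 91039104 to 91040980), which attracts neutrophils, was at 26.0, 23.9 and 25.8 FPKM in medium and at 1998, 2159 and 2060 FPKM with cytokines. This is 82.1-fold, or 6.30 on the log2 scale (standard error 0.21, adjusted p = 1.5e-09). Its neighbours *Cxcl5* (42.2 to 45.2 FPKM in medium, 1837 to 2025 FPKM with cytokines) and *Cxcl3* (58.7 to 72.2 FPKM and 1606 to 1786 FPKM) were already well measured in medium and rose 44.1-fold and 26.4-fold. *Cxcl2* was at 0.112, 0.153 and 0.307 FPKM in medium and only reached 23.8 to 28.0 FPKM. All 4 rose, and *Cxcl2* ended far below the other 3. Reads that fit several copies of this family could not be followed in the table, so the split between *Cxcl1*, *Cxcl2* and *Cxcl3* is uncertain to that extent.

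Among the CC chemokines, *Ccl2* (gene 20296, chromosome 11, 81926403 to 81928278), the main attractant of monocytes, was at 9.73, 6.73 and 6.26 FPKM in medium. With cytokines it was at 2092, 2154 and 2140 FPKM, a 281-fold rise (log2 fold change 7.98, standard error 0.17, adjusted p = 4.2e-11). The groups did not overlap, and the cytokine libraries differed little among themselves. *Ccl5*, which attracts T cells and monocytes, rose from 5.31 to 8.11 FPKM to between 823 and 932 FPKM. *Ccl7* rose from 10.6 to 11.5 FPKM to between 739 and 781 FPKM. *Ccl20*, the ligand of the receptor CCR6, had 0, 1 and 3 fragments in the medium libraries and reached 79.3, 90.1 and 87.8 FPKM (log2 fold change 6.31, adjusted p = 5.8e-11). The membrane-bound chemokine *Cx3cl1* went from 8.92 ± 0.954 to 250.3 ± 4.54 FPKM (SD, n = 3), and *Cxcl10*, an attractant of activated T cells, from 0.718, 1.26 and 0.705 FPKM to 77.0, 96.4 and 91.4 FPKM. *Ccl3* had no fragment in any medium library and 8.96 to 11.1 FPKM with cytokines, at least 47.4-fold higher with a floor of 3 fragments per library.

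*Cxcl12* was the only chemokine called lower. It is a homeostatic chemokine made by stromal cells, and it fell from 317, 318 and 312 FPKM to 186, 189 and 185 FPKM (log2 fold change -0.75, standard error 0.14, adjusted p = 0.0018). The groups did not overlap.

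The stretches before the transcription starts of 6 genes, chemokines named above and the cytokine gene *Il6*, are shown. Only stretches with a match to the decameric NF-κB consensus within 120 bases of the start were chosen. They were read from RefSeq promoters of the build GRCm38.p6, whose coordinates differ from those of the gene table, and run 5′ to 3′ on the strand of the gene with the last base next to the start. Capitals mark the NF-κB match, or the run covered by overlapping matches, and, in *Cxcl10*, also a match to the AP-1 motif TGANTCA.
*Cxcl1*, chr5:90891125-90891244, plus strand: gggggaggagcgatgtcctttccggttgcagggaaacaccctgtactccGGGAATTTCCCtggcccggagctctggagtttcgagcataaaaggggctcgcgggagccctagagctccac
*Cxcl2*, chr5:90903779-90903898, plus strand: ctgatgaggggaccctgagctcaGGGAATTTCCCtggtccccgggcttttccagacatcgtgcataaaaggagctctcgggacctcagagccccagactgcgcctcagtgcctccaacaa
*Cxcl3*, chr5:90785981-90786100, plus strand: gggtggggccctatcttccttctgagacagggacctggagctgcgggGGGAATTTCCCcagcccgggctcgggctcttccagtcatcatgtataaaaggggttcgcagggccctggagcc
*Ccl20*, chr1:83116646-83116765, plus strand: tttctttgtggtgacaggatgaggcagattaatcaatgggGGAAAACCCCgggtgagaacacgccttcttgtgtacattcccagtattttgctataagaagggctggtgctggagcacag
*Il6*, chr5:30012994-30013113, plus strand: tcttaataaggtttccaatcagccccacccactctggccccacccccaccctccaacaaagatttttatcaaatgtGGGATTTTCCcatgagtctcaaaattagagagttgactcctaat
*Cxcl10*, chr5:92348890-92349009, minus strand: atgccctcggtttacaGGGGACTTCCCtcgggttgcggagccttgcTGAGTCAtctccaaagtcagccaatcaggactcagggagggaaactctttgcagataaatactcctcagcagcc
In *Cxcl1*, *Cxcl2* and *Cxcl3* the same letters stand at positions -71, -97 and -73 from the start, counted at the first base of the match. A match on either strand is a description of the letters, not evidence of a bound site.

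Promoters of 300 bases, from 250 before to 50 after the start, were found for 8559 of the 11665 genes, some with more than 1 start. The NF-κB consensus was in 8.46% of the 32851 windows in the table, in 10.5% of those of the genes tested and in 13.2% of those of genes called higher. It was in 31 of 104 windows (29.8%) of the genes called higher by at least 8 times. The AP-1 motif was in 7.81% of all windows in the table, in 4.90% of those of the genes tested and in 6.24% of those of genes called higher. It was in 22 of the same 104 windows (21.2%). Of the genes called lower, 11.2% of windows held the NF-κB consensus and 5.30% the AP-1 motif. Tested CXC chemokines held the NF-κB consensus in 4 of 7 windows, and tested CC chemokines and fractalkine in 2 of 8.

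Cytokine genes moved the same way. Of the 14 tested cytokines and growth factors of inflammation (of 34 listed), 11 were called higher and none lower, with a median log2 fold change of 1.09. *Il6* (gene 16193, chromosome 5, 30218112 to 30224973), a cytokine that signals through gp130 and STAT3, was at 0.266, 0.825 and 0.681 FPKM in medium. With cytokines it was at 79.9, 86.4 and 97.1 FPKM, a change of 5.82 on the log2 scale (standard error 0.18, adjusted p = 8.3e-10). *Ereg*, a ligand of the EGF receptor, followed with 3.89, *Csf2* with 2.60, *Csf1*, the growth factor of macrophages, with 2.07 and *Lif* with 1.91. The genes of the 2 added cytokines stayed near 0, *Il1b* at 0 FPKM in medium and 0.011 FPKM with cytokines and *Tnf* at 0 FPKM and 0.024 FPKM, both under the filter.

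The NF-κB pathway's own subunits and inhibitors rose almost as a whole. Of 19 tested members (of 22 listed) 17 were called higher and none lower, with a median log2 fold change of 1.83. *Tnfaip3* (gene 21929, chromosome 10, 18876658 to 18891158) encodes A20, a ubiquitin-editing enzyme that ends NF-κB signalling. It was at 1.53, 1.89 and 1.66 FPKM in medium and at 88.0, 92.0 and 86.9 FPKM with cytokines, which is 52.6-fold (log2 fold change 5.06, standard error 0.10, adjusted p = 3.3e-11). *Nfkbia*, the gene of the inhibitor IκBα, went from 30.8, 25.1 and 25.8 FPKM to 199, 212 and 201 FPKM, 7.49-fold. The groups were apart for both. The inhibitor gene *Nfkbie* (log2 fold change 3.73), the RNase gene *Zc3h12a* (3.57) and the subunit genes *Relb* (2.61), *Nfkb2* (2.27), *Nfkb1* (1.83) and *Rela* (0.90) rose as well. The subunit gene *Rel* (0.29) and the deubiquitinase gene *Otud7b* (-0.01) were not called.

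Among 31 tested receptors and adaptors (of 36 listed) of IL-1, TNF and Toll-like signalling, 16 were called higher and none lower, with a median of 0.36. *Fas*, a death receptor of the TNF receptor family, rose most, from 1.29, 1.83 and 1.31 FPKM to 97.8, 100.05 and 103 FPKM (log2 fold change 5.36, adjusted p = 5.3e-11). It was followed by the kinase gene *Ripk2* (3.19), the receptor gene *Tlr2* (3.04) and *Il1rl1* (2.68), which encodes the IL-33 receptor. The receptors for the added cytokines changed less, *Il1r1* by 0.73, *Tnfrsf1b* by 1.37 and *Tnfrsf1a* by 0.37, and the core adaptors and kinases *Irak1*, *Irak4*, *Traf6*, *Ripk1* and *Map3k7* were not called, with values from -0.20 to 0.14.

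Leukocyte markers were counted because several of these genes are also made by macrophages. Of 9 markers, 2 passed the filter, and their summed level was 6.11 to 7.72 FPKM in medium and 11.8 to 12.3 FPKM with cytokines. *Cd14* made up most of that sum and was called higher (log2 fold change 1.00). The defining markers *Ptprc*, *Itgam* and *Tyrobp* had no fragment in any of the 6 libraries. No endothelial, epithelial or skeletal muscle marker passed the filter. The adipocyte marker *Fabp4* was not called (0.27), and of the pluripotent markers only *Sox2* passed the filter and was called lower (-1.56).

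**Figure D3:**
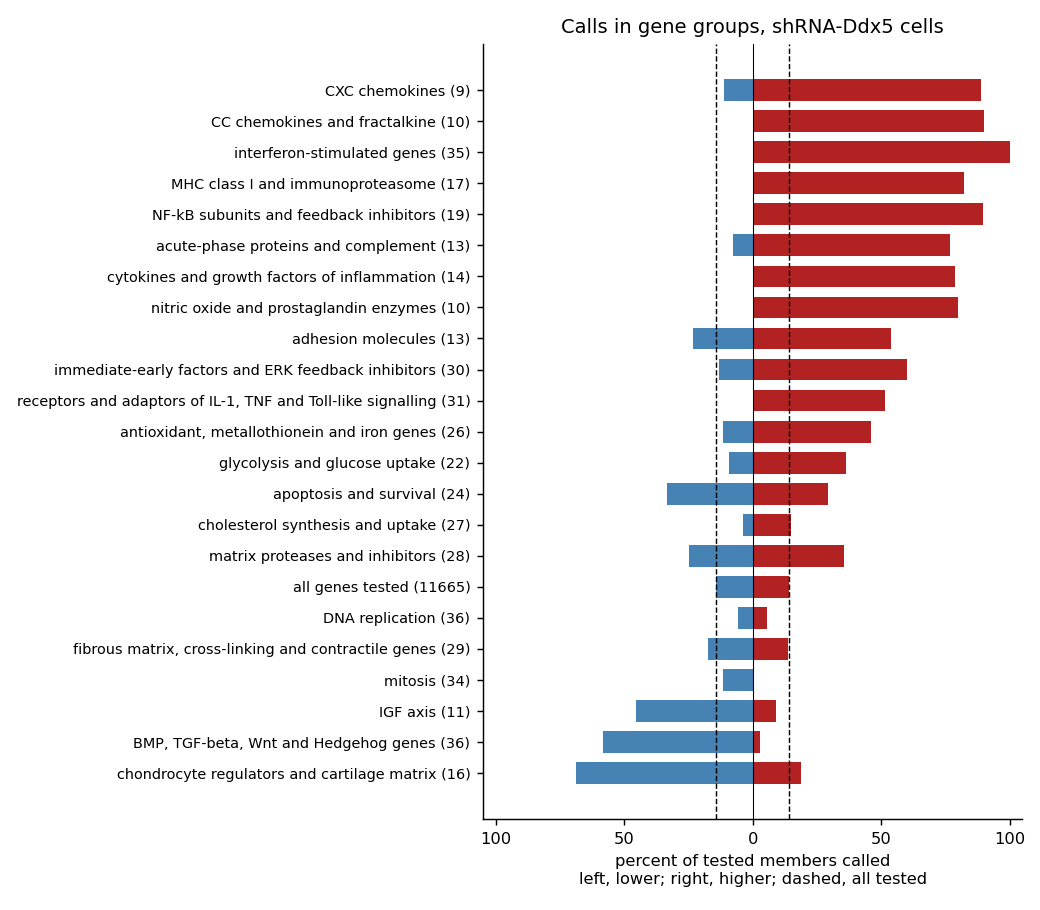
Percent of the tested members of each gene group called higher (red, to the right) or lower (blue, to the left) with cytokines in shRNA-*Ddx5* cells, ordered by median log2 fold change, with the number of tested members in brackets and dashed lines at the 14.2% of all genes called in each direction. Chemokine, interferon-stimulated, MHC class I and NF-κB genes lie at the top with 82.4 to 100% called higher, and cartilage regulators and BMP, TGF-β, Wnt and Hedgehog genes at the bottom with 58.3 to 68.8% called lower.

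Interferon-stimulated genes encode antiviral and antimicrobial proteins, and many are switched on through STAT and IRF factors that bind the interferon-stimulated response element (ISRE). All 35 tested members of the list of 45 were called higher, with a median log2 fold change of 2.18 and a range from 0.42 to 5.89. The guanylate-binding protein genes led. *Gbp2* (gene 14469, chromosome 3, 142326424 to 142343769) was at 2.92, 2.41 and 2.71 FPKM in medium and at 208, 220.2 and 222 FPKM with cytokines, 80.8-fold (log2 fold change 5.89, standard error 0.08, adjusted p = 2.3e-12). *Gbp3* (5.13) and *Gbp5* (4.85) followed. Outside this list, *Gbp2b*, a close relative of *Gbp2* next to it on chromosome 3, rose 135-fold, and reads shared between these genes make the split between them uncertain. *Ifit1* (gene 15957, chromosome 19, 34618289 to 34627409), which binds viral RNA, was at 0.830, 1.55 and 1.41 FPKM in medium and at 34.6, 41.5 and 41.4 FPKM with cytokines (log2 fold change 4.16, standard error 0.19, adjusted p = 1.9e-08). The ubiquitin-like modifier *Isg15* (3.33) and the factors *Irf7* (2.96), *Irf1* (2.67), *Irf9* (1.38) and *Stat2* (1.26) also rose. The groups were apart for each gene named here.

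The stretches of 120 bases before 3 of these genes are shown because they hold the ISRE motif, here GAAA, any 2 bases and GAAA again, or its reverse complement, which is in capitals. The *Gbp2* stretch also holds an AP-1 match in capitals, and for *Gbp3* the stretch before the upstream of its starts is given.
*Ifit1*, chr19:34640769-34640888, plus strand: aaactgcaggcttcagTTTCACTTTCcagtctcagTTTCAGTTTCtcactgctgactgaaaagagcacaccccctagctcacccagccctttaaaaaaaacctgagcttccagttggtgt
*Gbp2*, chr3:142620543-142620662, plus strand: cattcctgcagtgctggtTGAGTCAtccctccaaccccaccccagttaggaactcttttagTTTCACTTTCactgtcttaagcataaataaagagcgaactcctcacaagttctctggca
*Gbp3*, chr3:142559924-142560043, plus strand: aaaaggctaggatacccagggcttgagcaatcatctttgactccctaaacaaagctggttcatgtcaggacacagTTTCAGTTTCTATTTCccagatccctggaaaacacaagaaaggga
The ISRE was in 16 of the 32 windows of the tested interferon-stimulated genes (50%) and in 2.89% of the windows of all genes tested. It was in 5.79% of the windows of genes called higher and 1.86% of those of genes called lower.

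Genes of antigen presentation on MHC class I moved the same way. Of 17 tested (of 21 listed), 14 were called higher and none lower, with a median of 1.84. *Psmb10*, an inducible subunit of the immunoproteasome, went from 18.4, 14.5 and 15.2 FPKM to 189, 189.8 and 181 FPKM (log2 fold change 3.47, adjusted p = 1.1e-08). The class I heavy-chain gene *H2-K1* went from 8.60 to 11.2 FPKM to between 91.2 and 96.4 FPKM. The H2 genes are close copies of each other, so their separate values are uncertain. The peptide transporter genes *Tap1* (2.26) and *Tap2* (2.35) rose, while the light-chain gene *B2m* (0.40) was not called.

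Acute-phase and complement genes gave 10 of 13 tested (30 listed) called higher and 1 lower, with a median of 1.15. *Lcn2* (gene 16819, chromosome 2, 32274649 to 32277751) encodes lipocalin 2, which binds bacterial siderophores. It had 2, 0 and 1 fragments in the medium libraries and was at 95.7, 106 and 106 FPKM with cytokines (log2 fold change 6.60, standard error 0.41, adjusted p = 2.5e-07). Complement *C3* went from 0.175, 0.287 and 0.160 FPKM to 7.88, 8.14 and 7.74 FPKM (2.89), and the serpin gene *Serpina3g* rose by 3.58 on the log2 scale. *Cd59a*, an inhibitor of the terminal complement complex, was called lower (-0.34).

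Of 10 tested enzymes of nitric oxide and prostaglandin synthesis (of 21 listed), 8 were called higher and none lower, with a median of 0.89. Beside *Nos2* they included *Gch1* (2.28), the first enzyme of the synthesis of its cofactor tetrahydrobiopterin. *Ptgs2*, the inducible cyclooxygenase, went from 3.37, 5.43 and 4.18 FPKM to 53.4, 53.0 and 62.1 FPKM (log2 fold change 3.44, adjusted p = 5.7e-07), and the prostaglandin E synthase gene *Ptges* rose by 1.34 on the log2 scale. Adhesion molecules gave 7 of 13 tested (22 listed) higher (53.8%) and 3 lower (23.1%), against 14.2% in each direction over all genes tested. *Vcam1*, a ligand of leukocyte integrins, went from 0.823, 0.815 and 1.08 FPKM to 86.9, 92.2 and 93.1 FPKM, 100.2-fold (log2 fold change 5.59, adjusted p = 6.7e-12), while *Mcam* (-1.07) and the cadherin gene *Cdh2* (-0.43) fell.

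Matrix proteases and their inhibitors did not move together. Of 28 tested (of 47 listed), 10 were called higher (35.7%) and 7 lower (25%), against 14.2% in each direction over all genes tested. Their median of 0.0016 was close to that of all genes. *Mmp3* (gene 17392, chromosome 9, 7445822 to 7455975), stromelysin 1, had 3, 2 and 3 fragments in medium and was at 22.0, 21.9 and 26.3 FPKM with cytokines (log2 fold change 4.49, standard error 0.49, adjusted p = 3.2e-05), a value that rests on the pseudocount. *Mmp13* (gene 17386, chromosome 9, 7272514 to 7283333), the collagenase of cartilage type II collagen, was at 0.0682, 0.124 and 0.0830 FPKM in medium and at 9.29, 9.14 and 11 FPKM with cytokines (log2 fold change 3.30, standard error 0.38, adjusted p = 4.8e-05). The aggrecanase genes *Adamts4* (1.10 ± 0.145 to 5.89 ± 0.550 FPKM, SD, n = 3) and *Adamts5* (6.82 ± 0.884 to 10.5 ± 0.417 FPKM) rose by 1.71 and 0.56 on the log2 scale, with adjusted p-values of 1.6e-06 and 0.023 by limma. *Mmp12*, at 0 in every medium library, reached 1.41, 1.45 and 2.41 FPKM. The lower side held the inhibitor gene *Timp2*, from 619, 575 and 610 FPKM to 344, 349 and 322 FPKM (log2 fold change -0.83, adjusted p = 3.0e-05), with *Mmp11* (-0.84), *Plau* (-0.78) and *Mmp2* (-0.43). The inhibitor gene *Timp1* rose (1.29).

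The stretches before *Mmp3* and *Mmp13* are shown because both hold the AP-1 motif TGANTCA, in capitals, within 50 bases of the start.
*Mmp3*, chr9:7445702-7445821, plus strand: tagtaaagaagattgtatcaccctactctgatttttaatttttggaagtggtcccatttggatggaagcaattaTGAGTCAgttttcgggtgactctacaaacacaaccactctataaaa
*Mmp13*, chr9:7272394-7272513, plus strand: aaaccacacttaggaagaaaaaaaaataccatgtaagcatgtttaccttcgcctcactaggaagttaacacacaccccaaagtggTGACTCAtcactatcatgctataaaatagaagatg

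*Id2* (gene 15902, chromosome 12, 25143798 to 25146091), an inhibitor of basic helix-loop-helix factors and a target of BMP signalling, was at 75.2, 80.6 and 88.4 FPKM in medium and at 10.03, 12.2 and 11.9 FPKM with cytokines. It was thus 7.16-fold lower (log2 fold change -2.74, standard error 0.15, adjusted p = 8.4e-08). *Diras2*, a small GTPase gene, had the largest fall on the log2 scale, from 30.5, 31.5 and 34.1 FPKM to 3.54, 4.04 and 3.55 FPKM (-2.81, adjusted p = 1.2e-07). *Igfbp5* (gene 16011, chromosome 1, 72897224 to 72914024), which binds insulin-like growth factors, was the most abundant of the 15 largest falls, at 486, 467 and 484 FPKM in medium and 102, 102 and 91.1 FPKM with cytokines (4.88-fold lower, log2 fold change -2.28, adjusted p = 3.4e-05). The groups were apart for all 3 genes, as the choice of the 15 largest falls required.

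**Figure D4:**
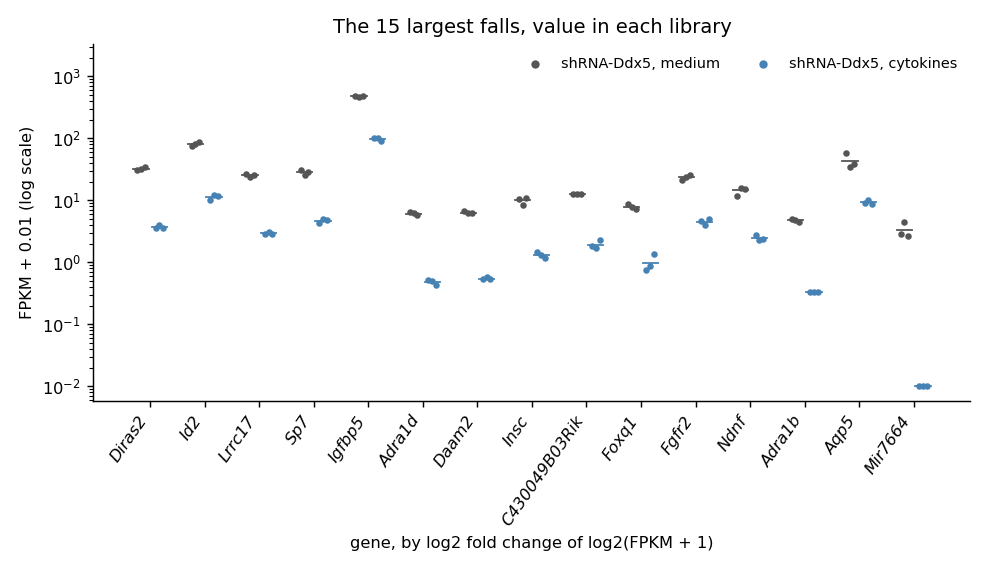
FPKM plus 0.01 (log scale) of the 15 genes with the largest falls in each shRNA-*Ddx5* library in medium (grey) and with cytokines (blue), with a line at the mean of 3 libraries. The genes were chosen among those with separate groups. Most differ by less than 10-fold, and *Mir7664* is drawn at the bottom because its cytokine libraries hold no fragment.

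*Sp7* (gene 170574, chromosome 15, 102265038 to 102275498), a transcription factor of osteoblasts, fell from 30.4, 25.4 and 29.2 FPKM to 4.25, 5.00 and 4.79 FPKM (log2 fold change -2.37, standard error 0.14, adjusted p = 1.5e-07). *Runx2*, which drives osteoblast differentiation and chondrocyte hypertrophy, fell from 15.4, 18.2 and 17.5 FPKM to 6.42, 6.24 and 6.31 FPKM (-1.30, adjusted p = 1.9e-06). *Sox9* (gene 20682, chromosome 11, 112673036 to 112678583), the master regulator of chondrocytes, fell from 26.7, 22.3 and 23.3 FPKM to 5.08, 5.85 and 5.27 FPKM. It was 4.46-fold lower (log2 fold change -1.97, standard error 0.09, adjusted p = 1.6e-08). The receptor gene *Fgfr2* fell from 21.5, 23.9 and 25.2 FPKM to 4.57, 3.92 and 4.98 FPKM, 5.25-fold lower. The formin gene *Daam2* and the adrenergic receptor gene *Adra1d* fell 11.8-fold and 12.98-fold from means of 6.33 and 6.09 FPKM. *Mir7664*, a microRNA hairpin of the table, rested on 3, 5 and 3 fragments in medium and none with cytokines, so its fall is at the floor.

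Of 16 tested chondrocyte regulators and cartilage matrix genes (of 38 listed), 11 were called lower (68.8%) and 3 higher (18.8%), with a median of -0.44. Over all genes tested, 14.2% were called in each direction. Beside *Sox9* and *Runx2* the falls were those of *Matn2* (-0.71), *Fgfr3* (-0.62), *Col11a1* (-0.52), *Bgn* (-0.51) and *Sox5* (-0.46). The rises were those of the proteoglycan genes *Dcn* (1.53) and *Prg4* (1.02), which encodes the lubricant of the joint surface, and of *Runx1* (0.31). *Sox2*, a factor of pluripotent and progenitor cells, fell from 20.1, 15.8 and 13.7 FPKM to 5.25, 4.92 and 4.45 FPKM.

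Of the 36 tested BMP, TGF-β, Wnt and Hedgehog genes (of 62 listed), 21 were called lower and 1 higher, with a median of -0.43. The ligand gene *Bmp4* fell from 92.0, 81.9 and 93.7 FPKM to 34.4, 33.3 and 31.1 FPKM, 2.71-fold (log2 fold change -1.41, standard error 0.11, adjusted p = 2.2e-06). The other inhibitor genes of the *Id2* family, which BMP signalling controls, fell too, *Id4* by 1.11, *Id1* by 0.75 and *Id3* by 0.69 on the log2 scale. The mediator genes *Smad9* (-0.89) and *Smad3* (-0.84) and the gene of the BMP signalling inhibitor *Smad6* (-0.56) were called lower. So were the Wnt receptor gene *Fzd2* (-1.09), the Wnt inhibitor gene *Dkk3* (-1.09) and the Hedgehog receptor gene *Ptch1* (-1.03). *Smad1*, *Smad4* and *Smad5* were not called, with values from -0.10 to 0.18, and *Tgfbr3*, a co-receptor, was called higher (1.15). In the IGF axis 5 of 11 tested (14 listed) were lower (45.5%), *Igfbp5* and the insulin receptor substrate gene *Irs1* (-1.40) most, and 1 was higher (*Igfbp7*, 1.28). Over all genes tested, 14.2% were called lower.

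Fibrous matrix genes were near the background, 4 of 29 tested (36 listed) called higher and 5 lower with a median of -0.09. *Col1a1* was at 111 ± 5.43 FPKM in medium and 96.0 ± 9.54 FPKM with cytokines (SD, n = 3), and the change on the log2 scale was -0.21 (limma, adjusted p = 0.63). *Col3a1* was at 274 ± 7.003 FPKM and 258 ± 12.1 FPKM (-0.09, adjusted p = 0.86 by limma with n = 3 per group). *Col1a2* was at 1774, 1678 and 1763 FPKM and then at 1407, 1352 and 1205 FPKM, lower in every cytokine library, but it did not pass the threshold (-0.40, adjusted p = 0.073). *Acta2* was higher in every cytokine library and did not pass either (0.62, adjusted p = 0.075). The groups of *Col1a1* and *Col3a1* overlapped.

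Immediate-early factors and feedback inhibitors of the ERK kinases gave 18 of 30 tested (40 listed) called higher (60%) and 4 lower (13.3%). Over all genes tested the share was 14.2% in each direction. The list's median was 0.52. The C/EBP factor genes led, *Cebpd* from 4.36, 3.41 and 3.49 FPKM to 97.8, 110.02 and 104 FPKM (log2 fold change 4.47, adjusted p = 2.7e-07) and *Cebpb* from 36.4, 27.3 and 28.3 FPKM to 249, 288 and 272 FPKM (3.10). The AP-1 gene *Junb* (2.47) rose as well. The dual-specificity phosphatase genes, which switch off the kinases, were split, with *Dusp6* higher (1.42) and *Dusp5* (-0.99), *Dusp14* (-0.56) and *Dusp7* (-0.39) lower.

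Among metal and antioxidant genes 12 of 26 tested (30 listed) were called higher and 3 lower, with *Sod2*, the mitochondrial superoxide dismutase gene, from 19.6, 16.5 and 19.5 FPKM to 124, 131 and 133 FPKM (2.74, adjusted p = 3.7e-09) and the metalloreductase gene *Steap4* from 0, 0.0176 and 0 FPKM to 6.68, 6.83 and 7.42 FPKM. The extracellular superoxide dismutase gene *Sod3* rose 3.36-fold. In glycolysis 8 of 22 tested (23 listed) were higher and 2 lower, with the hexokinase gene *Hk2* (1.45) and the glucose transporter gene *Slc2a1* (1.07) among the rises. *Gapdh* was also called (1.95, adjusted p = 0.045), but its libraries overlapped (7.69 to 12.6 FPKM in medium, 10.8, 92.0 and 56.3 FPKM with cytokines), and reads shared with its many pseudogenes make the value uncertain. Of 24 tested genes of apoptosis and survival (of 31 listed) 7 were higher, *Gadd45a* (2.75) and *Gadd45b* (2.16) most, and 8 were lower, with the pro-apoptotic gene *Bmf* (-1.13) most. The shares called higher and lower were 46.2% and 11.5% for metal and antioxidant genes and 36.4% and 9.09% for glycolysis. For apoptosis and survival they were 29.2% and 33.3%, against 14.2% in each direction over all genes tested.

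Genes of DNA replication gave 2 of 36 higher and 2 lower and mitotic genes 4 of 34 lower and none higher, with medians of -0.02 and -0.15. The count of mitotic genes called lower depended on the setting, from 3 to 13 (most with quantile normalization) and from 2 to 8 on leaving out 1 library (most without shRNA-*Ddx5* replicate 1). Cholesterol synthesis and uptake gave 4 of 27 tested (28 listed) higher (14.8%) and 1 lower, with a median of 0.08. As 14.2% of all genes tested were called in each direction, these counts lay near or below the background. The same was true of the replication and mitotic counts that open this paragraph.

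The same treatment of shRNA-NC cells was used to show where the response of knockdown cells was particular. In shRNA-NC cells 3975 of the same 11665 genes passed (34.1%), 2236 higher (19.2%) and 1739 lower (14.9%). The 2 responses share no library. They were called in the same direction for 1879 genes, which is 56.6% of the calls in knockdown cells and 47.3% of those in control cells. A further 19 genes were higher in knockdown and lower in control cells, and 52 went the other way. The difference between the responses, tested in the same limma fit, passed for 985 genes (8.44%), 410 with a higher value in knockdown cells (3.51%) and 575 with a lower one (4.93%). It is a difference of log2 changes, so a lower level of a gene in medium also enters it. The filter read only the knockdown libraries, so a gene raised by cytokines in control cells alone could not pass it. Counts of higher and lower differences in lists of induced genes can therefore lean toward knockdown cells. They describe each list and are no test of it. With the filter set over all 12 libraries, 428 of 12368 genes had a higher difference and 588 a lower one.

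In the limma test of the difference, interferon-stimulated genes gave 28 of 35 higher in knockdown cells and none lower, among genes that passed the knockdown filter. Their median difference was 0.97 on the log2 scale, against -0.02 over all genes, of which 3.51% had a higher difference. *Ifit1* in shRNA-NC cells was at 1.08 to 1.16 FPKM in medium and at 6.56, 12.3 and 9.84 FPKM with cytokines, below the 34.6 to 41.5 FPKM of knockdown cells. The difference was 1.88 (standard error 0.26, adjusted p = 0.0013). *Irf7* was at 10.7, 11.9 and 13.5 FPKM with cytokines in knockdown cells and at 1.02, 2.15 and 1.57 FPKM in control cells, from 0.241 to 0.880 FPKM in medium in both (difference 2.11, adjusted p = 0.00035). For *Gbp2* the difference was 1.25 and for *Isg15* 1.598. The list's median difference was 0.79 to 1.03 under the alternatives, but the count moved with the scale, to 17 with a pseudocount of 0.1 and to 13 higher and 1 lower with voom weights on the fragments.

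Against 3.51% higher over all genes tested, acute-phase and complement genes gave 7 of 13 higher differences and none lower. For several of them a control library, shRNA-NC cytokines replicate 2, stood apart, and it was picked out after its values were seen. Of all genes tested, 74 of at least 1 FPKM lay more than 2-fold above both others of the group in that library. In the other libraries the count was 26 to 83. Leaving out 1 library at a time gave 6 to 10 higher differences, with 10 without shRNA-NC cytokines replicate 2. There were 3 with a pseudocount of 0.1 and 2 with voom weights. When every library of knockdown cells had to reach 1 FPKM, 1 of the 6 genes left was higher. *Saa3* in shRNA-NC cells with cytokines was at 36.3, 278 and 79.1 FPKM and *Lcn2* at 4.84, 20.3 and 3.87 FPKM, with replicate 2 highest, while knockdown libraries were at 1785 FPKM or more and 95.7 FPKM or more. The differences were 4.11 (adjusted p = 0.0055) and 3.52 (adjusted p = 0.0035), and without that library 4.89 (adjusted p = 2.2e-05) and 4.18 (adjusted p = 3.0e-07). With voom weights on the fragments, the differences of *Saa3* (2.18, adjusted p = 0.786) and *Lcn2* (2.435, adjusted p = 0.549) did not pass. The same library had the highest *Mmp3* (1.73, 14.3 and 1.95 FPKM) and *Mmp13* (0.425, 4.25 and 0.458 FPKM). The difference for *Mmp13* was 2.15 (adjusted p = 0.031) and 2.78 without it (adjusted p = 1.4e-06), and that for *Mmp3* was 2.25 (adjusted p = 0.071), not past the threshold, and 3.06 without it (adjusted p = 1.3e-06). *Nos2* was at 40.3, 97.2 and 52.1 FPKM in control cells with cytokines. Its difference was 2.55 (adjusted p = 0.00075), but with voom weights on the fragments it was -1.21 (standard error 1.75, adjusted p = 0.73), and the control cells held at most 0.0155 FPKM in medium.

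The CXC chemokines gave 2 of 9 higher differences and 3 lower, against 3.51% and 4.93% over all genes tested. Their median was 0.28, and the lower ones were *Cxcl1*, *Cxcl5* and *Cxcl3*. *Cxcl1* reached 2334, 1834 and 1589 FPKM in control cells with cytokines, a range that overlaps the 1998 to 2159 FPKM of knockdown cells, but it started from 2.37 to 5.26 FPKM. Its difference was therefore -2.27 (standard error 0.29, adjusted p = 0.00076). For *Cxcl5* (-1.79) and *Cxcl3* (-1.42) the cytokine levels were higher in knockdown cells, and the levels in medium were higher by more. The difference for *Cxcl2* did not pass (0.28, adjusted p = 0.43). For *Ccl2*, *Ccl7* and *Vcam1* the tests gave differences of -0.53, 0.08 and -0.23, which did not pass.

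Immediate-early and ERK feedback genes gave 12 of 30 lower differences and 2 higher, with a median of -0.37. Over all genes tested 4.93% were lower and 3.51% higher. Lower differences numbered 10 to 13 in every alternative except a further limit of 1 on the size of the log2 difference, which left 6. *Dusp5*, a phosphatase specific for ERK, was at 5.49, 4.52 and 6.05 FPKM in knockdown cells in medium and at 2.00, 2.46 and 2.13 FPKM with cytokines, while in control cells it went from 10.5, 10.1 and 11.6 FPKM to 64.2, 39.2 and 44.3 FPKM. The 2 cell lines thus moved in opposite directions, with a difference of -3.06 (standard error 0.22, adjusted p = 2.8e-05). *Dusp6* rose in both, less in knockdown cells (difference -1.40). *Egr1*, an immediate-early factor named here after its values were seen, was at 1.33 to 1.504 FPKM in knockdown cells in medium and 1.59 to 2.38 FPKM with cytokines, and was not called (0.35, adjusted p = 0.29), while in control cells it reached 51.3 to 68.1 FPKM from 1.19 to 3.54 FPKM (difference -3.74, adjusted p = 9.0e-05). *Errfi1*, an inhibitor of the EGF receptor, rose in both lines with a difference of -2.09. The factor gene *Sox4*, the kinase gene *Pdk4*, the GTPase gene *Arl4c* and the surface protein gene *Cd24a* fell in knockdown cells and rose in control cells, with differences of -1.99, -2.32, -2.21 and -2.14.

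**Figure D5:**
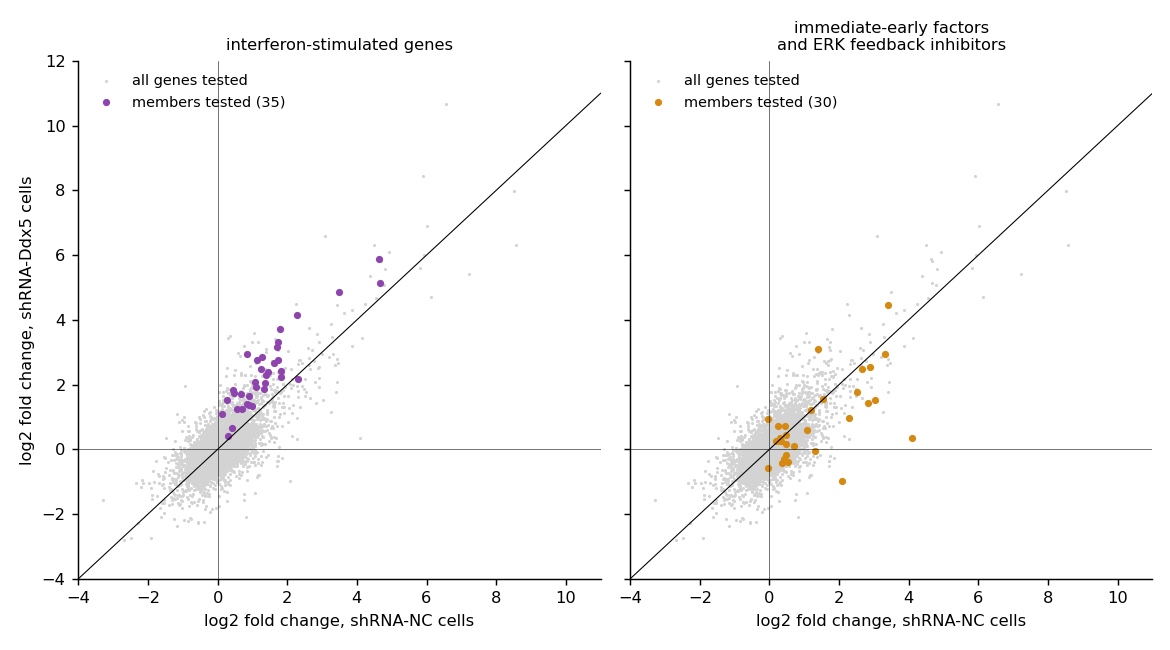
Log2 fold change with cytokines in shRNA-NC cells (x axis) and shRNA-*Ddx5* cells (y axis) for the 11665 genes tested (grey), with the 35 interferon-stimulated genes (left, purple) and the 30 immediate-early and ERK feedback genes (right, orange), and a diagonal of equal change. Most interferon-stimulated genes lie above the diagonal, and *Egr1* and *Dusp5* are the orange points farthest below it.

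In cholesterol synthesis and uptake 6 of 27 differences were higher and none lower, against 3.51% higher over all genes tested. On leaving out 1 library 3 to 9 were higher (fewest without shRNA-*Ddx5* cytokines replicate 1 or 3) and at most 1 was lower. *Insig1*, a sensor of sterols, rose in knockdown cells from 46.0, 48.0 and 46.7 FPKM to 63.0, 58.6 and 60.5 FPKM and fell in control cells from 42.8, 44.2 and 37.7 FPKM to 22.9, 25.4 and 25.4 FPKM (difference 1.10, adjusted p = 0.000198). In shRNA-NC cells 13 genes of this list and 25 of 34 mitotic genes were called lower, against 14.9% of all genes tested. The difference between the lines passed for only 3 of the 34 mitotic genes, all higher, with a median of 0.297. Under the alternatives 0 to 6 of them were higher. The cartilage regulators *Sox9* (difference -0.42, adjusted p = 0.055) and *Runx2* (-0.37, adjusted p = 0.14) and the ligand gene *Bmp4* (0.47, adjusted p = 0.097) fell in both lines and their differences did not pass.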

How the data were processed

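RNA of ATDC5 cells was sequenced as paired-end reads, in 4 groups of 3 libraries. The authors deposited 1 table of FPKM per gene and library, made with featureCounts after alignment with HISAT2 2.0.5. Versions of featureCounts differ between the methods and the submitters' processing notes (1.5.0-p3 in the notes). The notes name mm10, while the gene coordinates in the file are those of GRCm39. How strand and reads with several matches were counted is not given in the sources used here. The authors' own tests used DESeq2 and were not used.

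FPKM times gene length gave whole multiples of 1 step per library for 100% of nonzero values, so fragments per library could be recovered. Genes reaching 1 FPKM in 3 or more of the 6 knockdown libraries were tested as log2(FPKM + 1) with limma 3.58.1 in R 4.3.3 (lmFit and eBayes with trend, 4 group means, 12 libraries, two-sided, Benjamini-Hochberg adjustment, threshold 0.05), because the deposited unit is not a count. The fit was tested on simulated data. Labels do not say whether replicates are separate cultures, so p-values measure the spread between these libraries. Named genes were the 15 largest rises and 15 largest falls with groups apart, up to 5 rises and 3 falls per list, the 8 largest differences in each direction, and the genes the study names, and those outside this rule were chosen after their values were seen. The genes, lists and tests were chosen with earlier results of these data known. A few items are not reported here. Alternatives were the pseudocount, the filter, scaling, voom weights on fragments, the replicate block, the libraries in the fit and leaving out each library.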

Additional observations from a re-analysis of the deposited data

Results flagged for a closer look

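For 76 of the 161 named genes the response to cytokines differed between shRNA-*Ddx5* and shRNA-NC cells in the limma test of the difference. Over all genes tested 8.44% did, but the named genes cannot be compared with that share. They include the 8 largest differences in each direction, picked by this same test, and most others were picked for a large response. The values below are log2 changes in shRNA-*Ddx5* cells minus those in shRNA-NC cells. A higher value can thus be a larger rise or a smaller fall, and a lower one a smaller rise or a larger fall. Of the 75 given here, the difference was higher in shRNA-*Ddx5* cells for 43 and lower for 32.

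Among acute-phase and innate immune genes the higher differences were *Saa3* (4.11), *Lcn2* (3.52), *Ptx3* (3.14), *Serpina3g* (2.55), *Gpr84* (2.42), *C3* (2.24) and *Tlr2* (1.01). Among chemokines, cytokines and receptors they were *Ccl3* (3.13), *Ccl20* (1.81), *Il6* (1.13), *Fas* (0.99) and *Cxcl12* (0.97), which fell in both cell lines and fell less in shRNA-*Ddx5* cells. In interferon and antigen presentation genes they were *Ifit3* (1.91), *Ifit1* (1.88), *H2-Q4* (1.76), *Gbp5* (1.36), *Gbp2* (1.25), *Gbp2b* (1.17), *Psmb9* (1.14) and *H2-K1* (0.54). In nitric oxide, prostaglandin and antioxidant genes they were *Nos2* (2.55), *Gch1* (1.32), *Sod2* (1.17), *Ptges* (1.03), *Steap4* (2.40) and *Slc39a14* (0.77). In NF-κB genes, the kinase gene *Map3k8* and C/EBP factors they were *Cebpb* (1.72), *Nfkbie* (1.11), *Relb* (0.94) and *Map3k8* (0.80). In matrix and adhesion genes they were *Mmp13* (2.15), *Dcn* (1.39), *Thbs2* (1.28), *Icam5* (1.05), *Mmp12* (0.90), *Prg4* (0.84) and *P4ha2* (0.53). The others were *Tgfbr3* (1.13), *Pfkl* (1.12), *Insig1* (1.10), *Slc2a6* (0.97), *Ddx17* (0.49) and *Kif20a* (0.40).

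The lower differences in chemokines, cytokines and their signalling were *Cxcl1* (-2.27), *Cxcl5* (-1.79), *Cxcl3* (-1.42), *Csf1* (-1.36), *Lif* (-0.99), *Il1rl1* (-0.79) and *Ripk2* (-0.68). In ERK feedback, growth factor signalling and factor genes they were *Dusp5* (-3.06), *Errfi1* (-2.09), *Sox4* (-1.99), *Fgfr2* (-1.40), *Sp7* (-1.19), *Foxq1* (-1.22), *Irs1* (-1.03) and *Klf4* (-0.76). In adhesion, protease and cytoskeleton genes they were *Plau* (-1.97), *Daam2* (-1.87), *Insc* (-1.69), *Mcam* (-0.77) and *Cdh2* (-0.47). The others were *Mir7664* (-2.89), *Pdk4* (-2.32), *Arl4c* (-2.21), *Cd24a* (-2.14), *Adra1d* (-1.71), *C430049B03Rik* (-1.36), *Adra1b* (-1.32), *Ndnf* (-0.90), *Lrrc17* (-0.82), *Slc2a3* (-0.78), *Bmf* (-0.57) and *Nqo1* (-0.53).

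The library of shRNA-NC cells with cytokines, replicate 2, stood above the next highest of its group by 3.52-fold for *Saa3*, 9.03-fold for *Ptx3*, 9.02-fold for *Gpr84* and 6.95-fold for *C3*. Without it the differences of these 4 genes were 4.89, 3.43, 2.94 and 2.66. Those of *H2-K1*, *Bmf* and *Lrrc17* (0.50, -0.54 and -0.79) then did not pass (limma, adjusted p = 0.063, 0.055 and 0.065).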

How the results depend on the processing

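Of the 161 named responses 112 kept their direction and their side of the threshold under every alternative in which they were tested, and 10 of 16 of the largest differences did. With every knockdown library required to reach 1 FPKM, only 7 of those 16 differences and not all of the responses were tested. A further limit of 1 on the size of the log2 change, a stricter rule, took out 45 of the 161 responses. Requiring in addition a log2 change of at least 1 in size left 636 genes in shRNA-*Ddx5* cells (460 higher, 176 lower), 465 in shRNA-NC cells (345 higher, 120 lower) and 230 differences (129 higher, 101 lower). Leaving out 1 library of either cell line gave 2273 to 3794 genes in shRNA-*Ddx5* cells (1159 to 1946 higher, 1075 to 1887 lower). The total was lowest without shRNA-*Ddx5* replicate 3 and highest without shRNA-NC replicate 3. The differences then numbered 543 to 1102 (228 to 515 higher, 315 to 607 lower). The differences fell by over 1.5 times without shRNA-*Ddx5* cytokines replicates 1, 2 and 3 (586, 608 and 543), shRNA-*Ddx5* replicate 3 (580) and shRNA-NC replicate 2 (614). The log2 change of *Ddx5*, not called, ranged from -0.13 to 0.0616, with the highest value without shRNA-*Ddx5* replicate 2. With voom weights the difference of *Nos2* was -1.21 against 2.55, and those of *Saa3*, *Lcn2*, *Serpina3g*, *Steap4* and *Gpr84* were 2.18, 2.435, 3.19, 3.24 and 4.16 and no longer passed. With a pseudocount of 0.1 those of *Saa3* (2.89) and *Serpina3g* (3.21) did not pass either. The cause of these changes was not tested.

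In the fit with a replicate block there were 2876 calls in shRNA-*Ddx5* cells (1474 higher, 1402 lower), 3564 in shRNA-NC cells and 681 differences. Residuals of same-numbered libraries of shRNA-*Ddx5* cells correlated across genes at -0.01, -0.31 and 0.05, so the numbers were not taken as pairing.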

Other observations

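The table also gives a protein domain for part of the genes, and a few domain families, picked after their values were seen and not tested, moved to 1 side with cytokines in shRNA-*Ddx5* cells. Homeobox genes, which encode developmental transcription factors, gave 12 of 31 lower and 1 higher. Of 97 genes with an RRM_1 RNA-binding domain, 25 were called higher and 1 lower, with a median of 0.16. Proteasome subunits gave 8 of 23 higher and 0 lower. Over all genes tested, 14.2% were called in each direction.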
